A study of Homo sapiens with 24 samples.

Results

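Chromatin accessibility around 9 genes of the JAK-STAT pathway and its feedback inhibitors (JAK1, JAK2, STAT3, STAT5A, STAT5B, STAT6, SOCS1, SOCS3 and CISH) was examined after inhibition of CDK9 in cells of diffuse large B-cell lymphoma (DLBCL). A region belonged to these genes where it lay within 10 kb of an annotated transcription start site (TSS) of one of them or overlapped the gene body. The 9 genes stand among 20163 protein-coding genes, and the rule took 14 of the 26369 distinct regions called in the study, around 7 of the 9. Of the 14, 10 were called increased, 4 were called decreased and 0 were called in both directions.

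The regions came from ATAC-seq, in which a transposase cuts and tags open chromatin, on 24 libraries of the cell lines OCI-LY3 and VAL. Each line was exposed to 30 nM AZD4573, a selective inhibitor of the transcriptional kinase CDK9, for 0, 3 or 8 h, and the region lists name the 0 h control DMSO. Each line and time had 4 libraries, 2 by the standard protocol on 50000 cells and 2 by Fast-ATAC, a variant for blood cells, labelled with 5000 cells; the protocol text gives the larger input for Fast-ATAC too. The series text files OCI-LY3 under the germinal centre type and VAL under the activated B-cell type, whereas the lines are usually classed the other way round, so they are called here by name alone.

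The deposited lists hold the coordinates of regions that the authors called increased or decreased at 3 h or 8 h against 0 h of the same line. They hold no read count, fold change or p-value, so the depth is unknown, no value per library or replicate error could be given, and the library protocols cannot be told apart. A gene without a listed region may still have changed by less than the authors' limits. The authors set 3 h and 8 h against one set of 0 h libraries in each line, so those comparisons are given side by side only. The increased lists ran from 1852 regions (OCI-LY3, 3 h) to 11121 (VAL, 8 h) and the decreased lists from 1677 to 9260 in the same comparisons.

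Janus kinases (JAKs) are bound to cytokine receptors and phosphorylate the STAT transcription factors once a cytokine binds. Phosphorylated STATs pair, enter the nucleus and bind a palindrome of TTC and GAA, and among the genes they switch on are SOCS1, SOCS3 and CISH, whose products shut the pathway off. In B-cell lymphoma the pathway is known for STAT3 activity downstream of IL-6 and IL-10 and for mutations of STAT6 and SOCS1.

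At 8 h in VAL, 9 regions of 6 genes (STAT3, STAT5A, STAT5B, STAT6, SOCS1 and SOCS3) were called increased, and each of the 6 had an increased region within 1000 bp of a TSS, here called a promoter region. That was 66.7% of the 9 genes both by the full rule and by promoters, where 36.4% of all protein-coding genes had an increased region by the rule and 25.1% had one at a promoter. The STAT6 region counted here covered the TSS of LRP1 and 0 of the 7 STAT6 TSS. Decreased regions at this time lay only at JAK1, which held 2 of them, both more than 10 kb from a TSS and so 0 without gene bodies. The background for decreased regions was 13.7% of genes by the rule, 7.53% by distance to a TSS alone and 3.38% by promoters.

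At 3 h in VAL, 3 of the 9 genes (33.3%) had an increased region, each with 1, namely STAT5B, STAT6 and SOCS3, against 16.7% of all genes. For STAT5B and STAT6 it was a promoter region, which made 22.2% of the 9 genes against 10.3% of all. That of STAT6 was again the region over the LRP1 TSS. The 3 decreased regions of this comparison again belonged to JAK1 alone and lay at no promoter, 1 of them within 10 kb of a TSS. Over all genes, 4.42% held a decreased region by the rule, 1.67% by distance to a TSS alone and 0.322% at a promoter.

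In OCI-LY3 none of the 9 genes had a called region at 3 h, when 10.5% of all genes had an increased and 5.01% a decreased region by the rule, and 5.92% and 0.694% had one at a promoter. At 8 h, 4 genes (44.4%) had 1 increased region each, namely JAK1, STAT5B, SOCS1 and SOCS3, against 18.7% of all genes. By distance to a TSS alone, without gene bodies, this fell to 2 genes (22.2%) against 14.9% of all. Only that of SOCS1 was a promoter region, which made 11.1% of the 9 genes against 9.3% of all, a share close to the background. No region of the 9 genes was called decreased in OCI-LY3 at 8 h, where the background was 7.74% by the rule and 1.28% by promoters. With 9 genes, 1 gene moves each of these shares by 11.1 percentage points, and the shares are descriptions with no test.

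**Figure D1:**
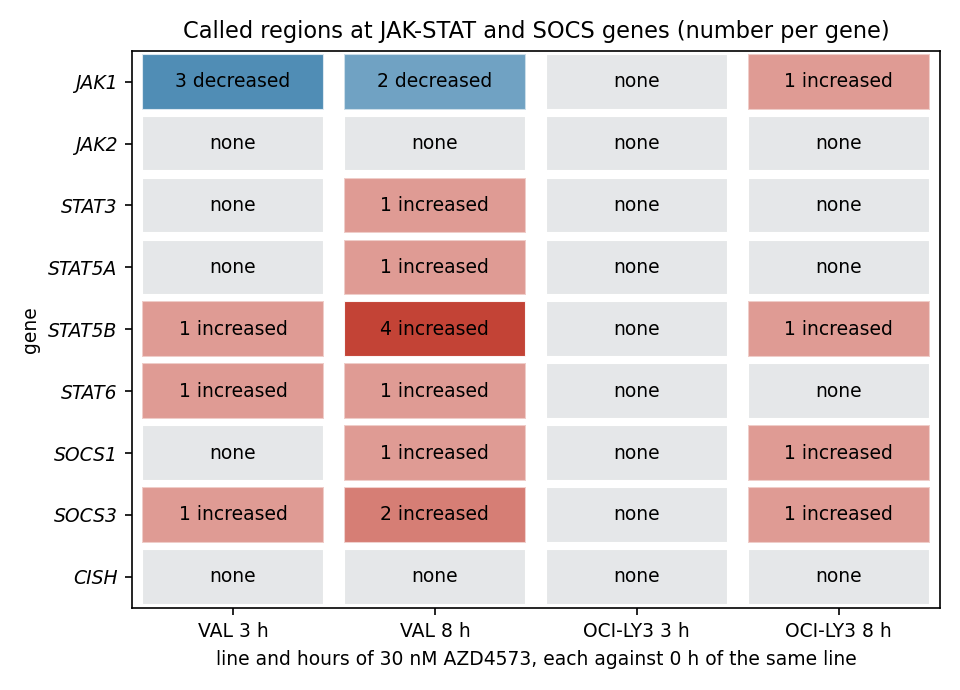
Each cell gives the number of called regions at a gene (vertical axis) in a comparison of 3 h or 8 h with 0 h of the same line (horizontal axis), red for increased, blue for decreased and grey for none, with darker shades for more regions. STAT5B held the most increased regions, 4 in VAL at 8 h, the decreased regions were all at JAK1, and JAK2 and CISH held 0.

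Of the kinases, JAK1, which serves the receptors of interferons and of many interleukins, had 5 regions by the rule. Its 235 kb gene spans chr1:65298912-65533437 (hg19, reverse strand). The 4 decreased ones were called in VAL alone, and the region increased in OCI-LY3 at 8 h was a separate 668 bp stretch in intron 8, at chr1:65326720-65327387, 105 kb from the nearest TSS. The region at chr1:65394039-65395190, in intron 1, was decreased in VAL at both 3 h and 8 h. The neighbouring region of intron 1 at chr1:65398616-65400406 was called at 3 h only, as was chr1:65540496-65542030, which lay 7059 bp upstream of the first annotated TSS. The region at chr1:65506750-65507916 was called at 8 h only and held no exon base of any transcript. The JAK1 promoters were called in no comparison.

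As many as 3 decreased regions in VAL at 3 h was uncommon, with 33 of all protein-coding genes (0.164%) reaching it. Long genes have more room for regions, and 29 of the 3352 genes of at least 100 kb (0.865%) reached it. At 8 h, 5.08% of all genes and 21.7% of the long ones had at least 2 decreased regions. On chromosome 1, 64.2% of the regions called in VAL at 3 h and 62.8% of those at 8 h were increased.

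The decreased region of intron 1 called at 3 h alone held 3 matches to TTCNNNGAA, the STAT palindrome with a spacer of 3 bases, and 4 with a spacer of 4, both strands being equal for a palindrome. As many as 7 matches occurred in 0.0493% of all regions. The matches with a spacer of 3 are shown because this number set the region apart from the other 13. Each is given on the strand of JAK1 with 16 bases of intron on either side and the match in capitals, from chr1:65398788-65398828, chr1:65399489-65399529 and chr1:65400284-65400324 (hg19).
JAK1 intron 1, match A: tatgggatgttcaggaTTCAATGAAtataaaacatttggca
JAK1 intron 1, match B: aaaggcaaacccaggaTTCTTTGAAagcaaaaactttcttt
JAK1 intron 1, match C: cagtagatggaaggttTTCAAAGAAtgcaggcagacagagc
A match describes the letters only, and whether a STAT bound there was not measured.

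JAK2, the kinase of the erythropoietin and interferon gamma receptors, lies on chr9:4985272-5129948 and had no called region by the rule over 145 kb. Its nearest region, decreased in VAL at 8 h, lay 45.5 kb upstream. On chromosome 9, 38.7% of genes had an increased and 12.5% a decreased region by the rule in VAL at 8 h.

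Of the transcription factors, STAT5B and STAT5A, which act downstream of IL-2 and related cytokines, lie head to head on chromosome 17 and shared 1 region. It spanned 2223 bp at chr17:40439374-40441596, covered 9 of 9 STAT5A TSS and 2 of 4 STAT5B TSS, and was called increased in VAL at 8 h alone. It is 1 region and counts under both genes. STAT5B had a further promoter region at chr17:40427581-40429020, over its canonical TSS and exon 1, which was increased in VAL at 3 h and 8 h.

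STAT5B also held 2 increased regions in intron 1. The one at chr17:40400352-40401612, 26.8 kb from the nearest TSS, was increased in both lines at 8 h, and the one at chr17:40411833-40413008, 15.4 kb away, in VAL at 8 h alone. In VAL at 8 h, 2.19% of all genes and 3.91% of the long ones had as many as 4 increased regions, the number at STAT5B, whose gene spans 89.5 kb. The intron regions had a GC content of 42.8% and 38.4%, below the 71.0% and 65.8% of the STAT5B promoter regions.

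Within the shared region, 1 match to the STAT palindrome with a spacer of 3 lay outside every exon, at chr17:40441016-40441056 with its flanks, on the strand of STAT5A. It is shown with the match in capitals because it was the 1 match of that spacer in the region.
STAT5A: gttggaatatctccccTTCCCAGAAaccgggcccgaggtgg

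STAT3, which carries the signal of IL-6 and IL-10, had 1 region, at chr17:40539846-40541292 over exon 1 and 18 of its 19 TSS, and it was increased in VAL at 8 h alone. The 300 bases upstream of its canonical TSS held no STAT palindrome of either spacer, where 7.12% (spacer of 3) and 5.24% (spacer of 4) of all such windows held one. The region itself held 1 with a spacer of 3, 385 bp downstream of that TSS. STAT6, which carries the signal of IL-4 and IL-13, had 1 region, at chr12:57520946-57522461, increased in VAL at 3 h and 8 h. It lay 422 bp from the most upstream of 7 STAT6 TSS but its midpoint stood at -16.6 kb from the canonical one, and it covered the TSS of LRP1, a lipoprotein receptor gene. The canonical STAT6 start was called in no comparison, and the region covered 0 of the 7 STAT6 TSS. By position its nearest gene was LRP1. It counts under STAT6 by the rule, and which gene it acts on was not tested.

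**Figure D2:**
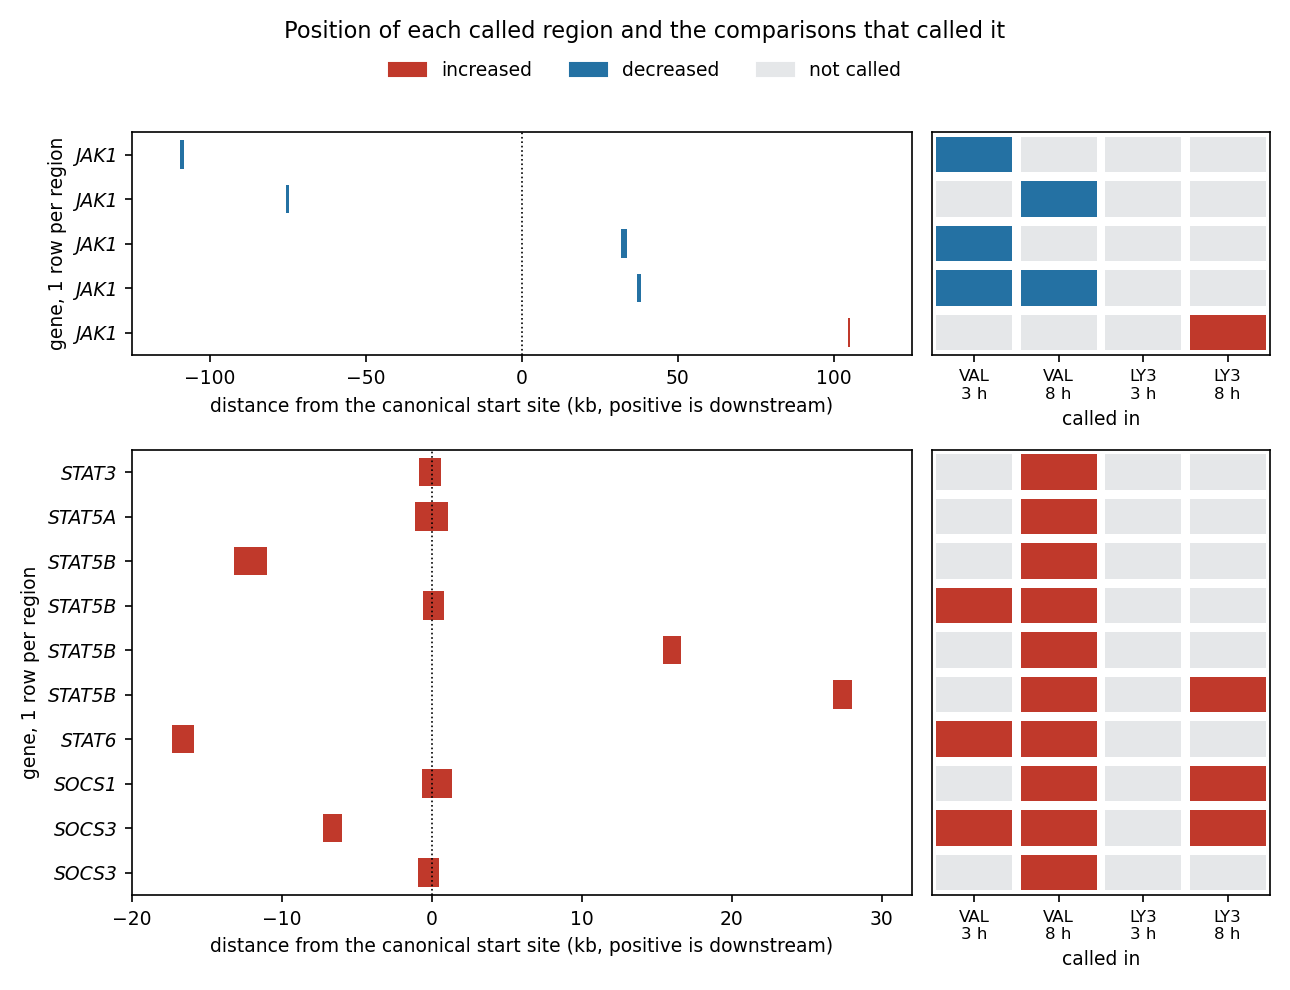
Left, the span of each region relative to the canonical TSS of its gene (horizontal axis, kb, JAK1 on a wider scale), and right, the comparisons that called it increased (red) or decreased (blue), with LY3 for OCI-LY3. The region shared by STAT5A and STAT5B is drawn for both. The decreased regions lie only at JAK1, from inside the gene to 109 kb upstream of its canonical TSS, and 6 of the 10 increased regions lie at promoters.

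Of the feedback inhibitors, SOCS1, which blocks JAK activity directly and marks it for degradation, had 1 region, at chr16:11348738-11350720. This 1983 bp region overlapped both SOCS1 exons, covered 2 of 2 TSS and was increased in both lines at 8 h. It was the sole promoter among the 9 genes (11.1%) called in both lines, beside 7.49% of all protein-coding genes with a promoter increased in both lines at 8 h, and 343 genes (1.7%) had promoter calls at 8 h in both lines and none at 3 h. The gene is small, at 1.79 kb, and 659 bp of the region lay outside it. The region had the highest GC content of the 14, 74.0%.

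The SOCS1 upstream sequence is shown because it lies inside this region. It runs from chr16:11350062 to chr16:11350361 (hg19, reverse strand) and ends at the base before the TSS. Capitals mark a match to the ETS motif CCGGAAG, present in 12.8% of 19881 upstream windows of this length, and then a match to the interferon response element, read as GAAA, 2 bases of any kind and GAAA again, present in 3.47%.
SOCS1 upstream: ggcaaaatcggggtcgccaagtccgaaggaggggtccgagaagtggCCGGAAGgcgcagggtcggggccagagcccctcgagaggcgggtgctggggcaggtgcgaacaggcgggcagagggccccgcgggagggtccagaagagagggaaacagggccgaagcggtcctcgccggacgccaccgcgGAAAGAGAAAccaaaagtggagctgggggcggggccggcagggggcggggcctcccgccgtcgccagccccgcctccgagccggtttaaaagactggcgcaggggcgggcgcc

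SOCS3, the inhibitor of receptors that use gp130, had a promoter and an upstream region. The promoter region at chr17:76355683-76357092 covered its only TSS and that of the divergent transcript SOCS3-DT, and it was increased in VAL at 8 h alone. The upstream region at chr17:76362182-76363435, 6024 bp from the TSS, was increased at both times in VAL and also in OCI-LY3, there at 8 h. It was the only one of the 14 called in 3 comparisons. The upstream region held 1 STAT palindrome with a spacer of 3, which 30.5% of all regions held at least once. It is shown in capitals with its flanks, at chr17:76362450-76362490 (hg19) on the strand of SOCS3, because it lies in the region called most often.
SOCS3 distal: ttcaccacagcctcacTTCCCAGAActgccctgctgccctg

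CISH, an inhibitor of signalling through STAT5, lies on chr3:50643920-50649205 and had no called region by the rule, although its upstream sequence held the most STAT palindromes of the 9 genes. The 300 bases before its TSS held 4 with a spacer of 3, a number that 3 of 19881 upstream windows reached. A match of this kind was present in 7.12% of all windows. The exon-free stretch next to the TSS, at chr3:50649206-50649338 on the reverse strand, is shown with 2 of the 4 in capitals.
CISH upstream: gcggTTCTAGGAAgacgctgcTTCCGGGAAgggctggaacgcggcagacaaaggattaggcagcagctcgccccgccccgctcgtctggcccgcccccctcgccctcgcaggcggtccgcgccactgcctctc
The nearest region to CISH, increased in VAL at 8 h, lay 60.9 kb downstream. On chromosome 3, 28.2% of the regions called in VAL at 8 h were increased, and 15.1% of genes had an increased promoter region.

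Chromosomes 16 and 17 held 8 of the 10 increased regions, and STAT3, STAT5A, STAT5B, SOCS1 and SOCS3 lie on them. Of all 11121 regions increased in VAL at 8 h, 867 lay on chromosome 16 and 1175 on chromosome 17. On chromosome 17, 98.7% of the regions called in VAL at 8 h were increased, and 54.6% of genes had an increased promoter region, compared with 25.1% over the genome. On chromosome 16 the same values were 96.9% and 50.1%. In OCI-LY3 at 8 h, 94.0% of the regions called on chromosome 17 and 93.6% of those on chromosome 16 were increased, with 13.9% and 21.5% of genes having an increased promoter region. STAT3, STAT5A, STAT5B, SOCS1 and SOCS3 thus stand on chromosomes where most calls of these comparisons went up, and the part of chromosome in their counts was not tested. STAT6 lies on chromosome 12, where 23.7% of genes had an increased promoter region in VAL at 8 h and 7.02% at 3 h.

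**Figure D3:**
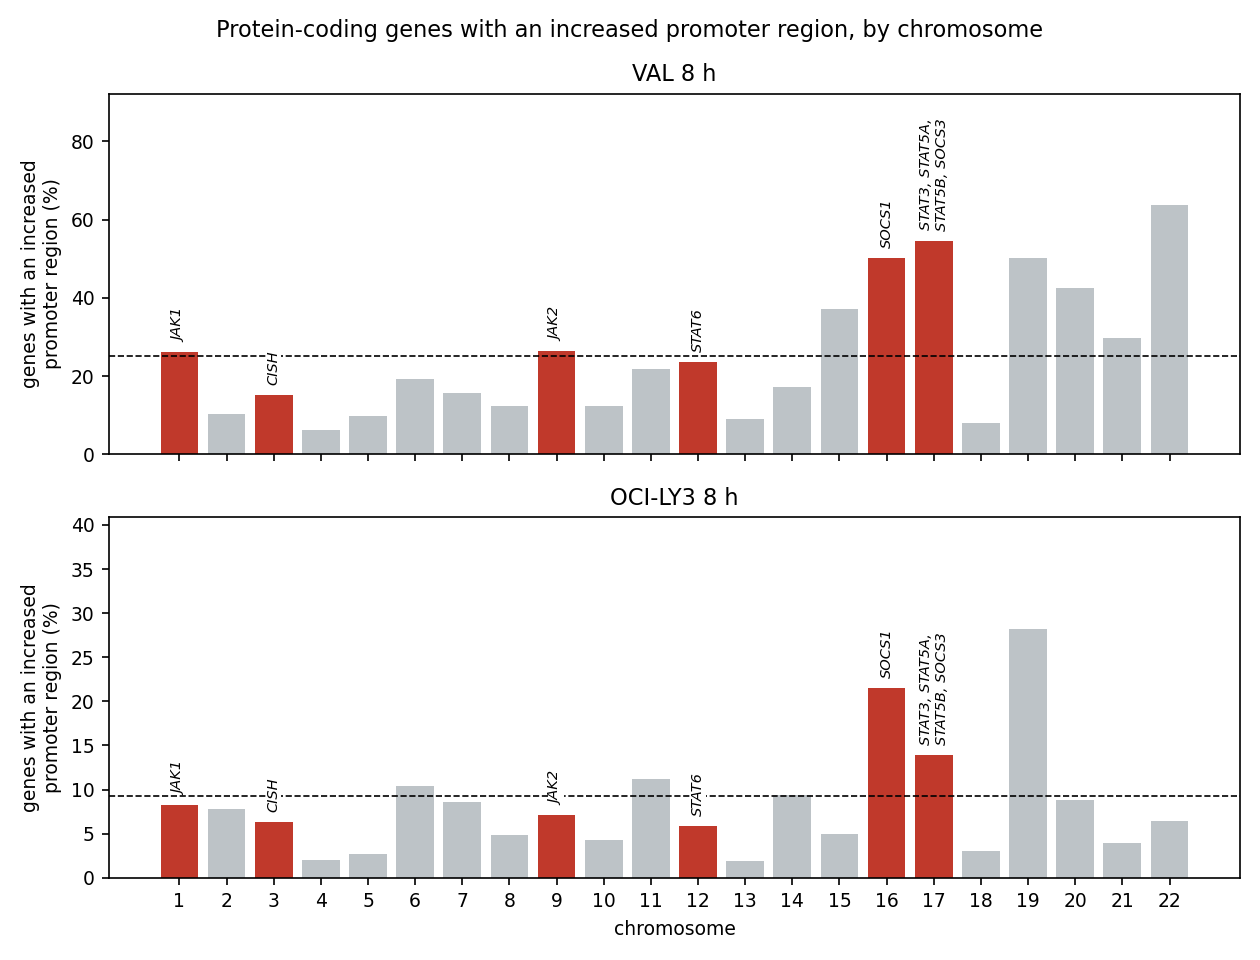
Percent of protein-coding genes with an increased promoter region on each chromosome (vertical axis), at 8 h in VAL (top) and OCI-LY3 (bottom, on a smaller scale). Red bars are the chromosomes of the 9 genes, grey bars the other autosomes, and the dashed line is the percent over all protein-coding genes. In VAL at 8 h chromosomes 16 and 17 reach 50.1% and 54.6% against 25.1% over the genome.

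Between the lines, 3 regions were increased at 8 h in both, at SOCS1, STAT5B intron 1 and SOCS3 upstream. That was 75.0% of the 4 regions of OCI-LY3 and 33.3% of the 9 of VAL, beside 53.3% and 20.9% over all regions increased at 8 h. None of the 14 regions was called in opposite directions in the lines.

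Widths of the 14 regions ran from 668 to 2223 bp, with medians of 1425 bp for increased and 1351 bp for decreased regions, beside 1309 bp over all regions. The increased regions ran from 38.4% to 74.0% GC and the decreased from 36.8% to 45.9%, and over all regions the medians were 56.2% and 41.4%. A STAT palindrome with a spacer of 3 was present in 5 of the 14 regions (35.7%, 95% Wilson interval 16.3% to 61.2%, counting error only), and the 30.5% of all regions lay inside that interval. The interferon response element was present in 5 of 14 (35.7%, same interval) beside 19.6% of all regions, which also lay inside the interval, but in 0 of 14 beside 5.54% in the 300 bp around the midpoint. The AP-1 motif TGANTCA was present in 3 of 14 (21.4%) beside 30.7%. A loose NFkB pattern, GGG and CC with 5 bases between, was present in 11 of 14 (78.6%) beside 77.8%, the ETS motif in 2 of 14 (14.3%) beside 12.8%, and the CTCF core in 2 of 14 (14.3%) beside 12%.

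At the edge of the rule, the regions farthest from a TSS that entered by distance alone were those of SOCS3 at 6024 bp and JAK1 at 7059 bp. Just outside it, the STAT5B promoter region lay 10545 bp from STAT5A. A 948 bp region at chr17:40464156-40465103, increased in VAL at 3 h and 8 h, was left out. It lay between the 3′ ends of STAT5A and STAT3, 239 bp past that of STAT3, and the nearest TSS was that of STAT5A. Also left out was a 1308 bp region at chr12:57487249-57488556, decreased in OCI-LY3 at 3 h, which lay 635 bp past the 3′ end of STAT6 and 4352 bp from the TSS of NAB2.

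Beyond these 9, a list of 54 further genes of the pathway in 7 roles was counted. In VAL at 8 h, 26 of them (48.1%) had an increased region and 20 (37.0%) an increased promoter region, while 8 (14.8%) had a decreased region, beside 36.4%, 25.1% and 13.7% of all protein-coding genes, so that the decreased share was close to the background. In OCI-LY3 at 8 h, 18 (33.3%) had an increased region, 11 (20.4%) an increased promoter region and 4 (7.41%) a decreased region, beside 18.7%, 9.3% and 7.74% of all genes. In VAL at 3 h, 12 (22.2%) had an increased and 4 (7.41%) a decreased region, beside 16.7% and 4.42% of all genes. In OCI-LY3 at 3 h, 7 (13.0%) had an increased and 4 (7.41%) a decreased region, beside 10.5% and 5.01%.

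The promoters of 9 of the 54 (16.7%) were increased at 8 h in both lines, beside 7.49% of all protein-coding genes. They were those of the kinases JAK3 and TYK2, of PIAS4, which restrains STAT activity, and of PTPN11, the phosphatase SHP-2. The cytokine receptor genes IL4R and IL21R were among them, as were MCL1, which blocks apoptosis, JUNB, an AP-1 subunit, and FCER2, the B-cell antigen CD23. Of these, JAK3, TYK2, PIAS4, JUNB and FCER2 lie on chromosome 19 and IL4R and IL21R on chromosome 16. On chromosome 19, 50.1% of genes had an increased promoter region at 8 h in VAL and 28.2% in OCI-LY3, and the part of chromosome in the count was not tested. In VAL at 8 h, increased promoter regions were held by 2 of 2 further kinases, 0 of 3 further STATs, 1 of 5 further SOCS genes, 6 of 9 PIAS and phosphatase genes, 6 of 15 receptors, 0 of 9 ligands and 5 of 11 target genes.

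**Figure D4:**
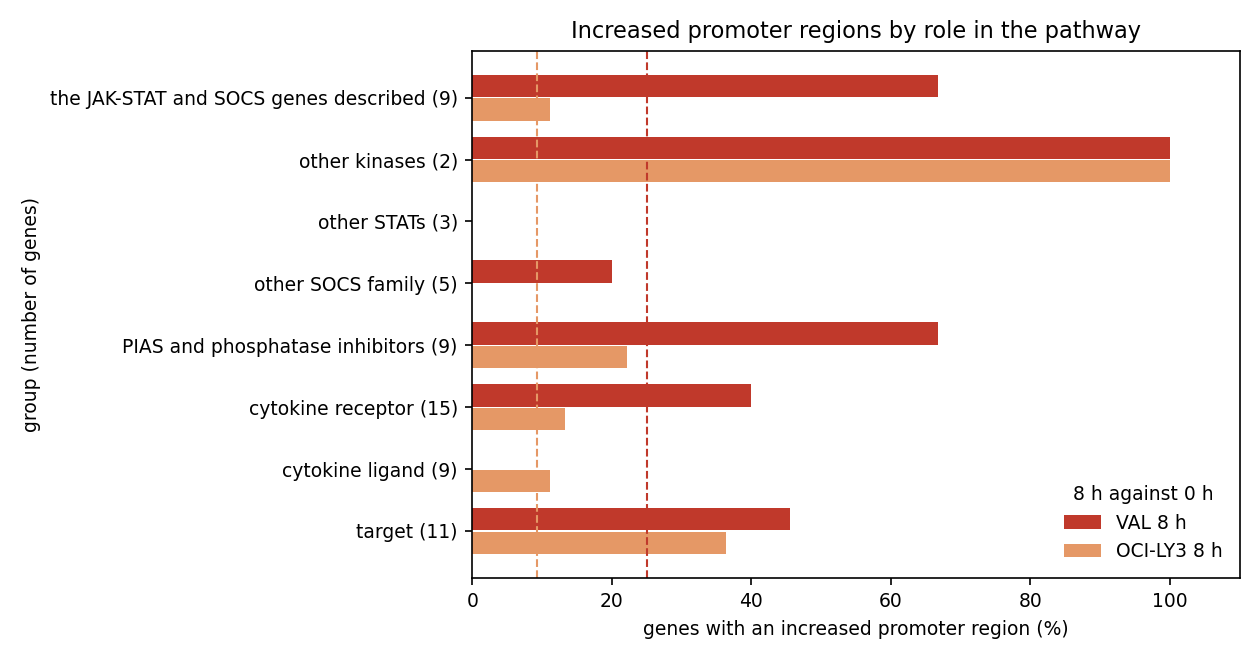
Percent of genes with an increased promoter region at 8 h (horizontal axis) among the 9 genes (top row) and the 54 further pathway genes by role, in VAL and OCI-LY3, with the percent over all protein-coding genes as dashed lines. Both further kinases were called in both lines, and no further STAT gene was called in either.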

How the data were processed

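ATAC-seq was performed on 24 libraries, grouped by the labels' line, time and protocol. Per the labels and the study's methods, the authors used Bowtie2 for alignment to hg19, called peaks per sample with MACS2, merged peaks and counted reads with bedtools, and compared conditions with DESeq2. Versions are not given for these ATAC-seq steps, and the study's text gives differing limits on the adjusted p-value. The deposited values are region coordinates in bp; no score or fold accompanies them, and there were 0 columns of per-sample values.

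Regions were assigned with GENCODE v44 lifted to GRCh37, using TSS of transcripts tagged basic, with windows of 10 kb and 1000 bp, and sequence was read from GRCh37, in Python 3.11.15 with numpy 2.4.6, pandas 2.3.3, scipy 1.17.1, pysam 0.24.0 and matplotlib 3.10.9. Regions in 2 lists were the same where coordinates were equal. Motifs were fixed letters searched on both strands, over whole regions and over the 300 bases upstream of each canonical TSS. The scripts were tested on simulated data. No test between conditions was made, because lists of called regions hold no spread between libraries. The text names all 9 members, further pathway genes whose promoter was called in both lines in the same direction at 8 h, and other genes nearest to a region; IRF1 falls outside this rule and was chosen after its values were seen. The members and gene lists were chosen with earlier results of these data known. Alternatives changed the distance, the transcripts, the gene bodies, the promoter, the overlap and the motif window. Some sequences and genes are not reported here.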

Additional observations from a re-analysis of the deposited data

How the results depend on the processing

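Of 115 alternative values, 98 stayed within 1.5 times the reported count or within its interval, and 17 moved. Many of the 98 were counts of 0 that stayed at 0, where this limit says little. A count cannot reverse in sign, so reversal was not assessed. With a distance of 25 kb, increased regions rose to 7 in VAL at 3 h and 14 at 8 h in that line, while OCI-LY3 at 3 h gained 1 increased region of 1 gene and 1 decreased region of 1 gene. With all annotated transcripts, VAL at 3 h had 5 increased regions of 5 genes, and OCI-LY3 at 3 h 1 decreased region of 1 gene. Both changes widen the rule for every gene. Shares over all genes are not given for them, so these counts stand without a background. Without gene bodies, decreased regions fell to 1 in VAL at 3 h (1 gene, 11.1%, against 1.67% of all genes). They fell to 0 regions of 0 genes in VAL at 8 h (7.53% of all genes). Increased regions fell to 2 of 2 genes in OCI-LY3 at 8 h (14.9% of all genes), since regions in introns leave the count. The share of regions with the STAT palindrome was 7.14% in 200 bp around the midpoint (all regions 5.1%) and 14.3% in 300 bp (all regions 7.68%), the latter chosen after seeing the data, since less sequence was searched. No paired analysis was possible because the lists carry no value per library; for the same reason no library could be left out, no stricter threshold applied, and no depth is known.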

Other observations

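IRF1 was picked out of the 54 further pathway genes after its values were seen, for a decreased region in all 4 comparisons. Over the genome, 180 of 20163 protein-coding genes (0.893%) had one in all 4. IRF1, an interferon-induced transcription factor gene, had this region at chr5:131815567-131817266 (hg19), 8688 bp from its nearest TSS and outside the gene, and its promoter was not called. Both times of a line were compared with the same 0 h libraries.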
